A study of Mus musculus with 4 samples.

Results

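The array used for this study carried, beside probes to known genes, a set of custom designs against individual complementary DNA clones and transcript records. Their target names start with AlBr, ESEB, GNFA or CGen, 4 prefixes whose meaning the sources used here do not give. All spots that are no controls and carry such a name were taken, which gave 4720 probes to 2343 targets, of 43553 probes to 21646 targets or accessions on the whole array. AlBr held 772 targets, ESEB 731, GNFA 484 and CGen 356. Each target had 2 probes, except 17 names with 4 probes. Names are shortened to 27 characters and 2225 of them reach that length, so a name with 4 probes may join 2 designs.

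The cells were mouse embryonic fibroblasts, primary connective tissue cells taken from embryos. The first group was growing at passage 2, and the second had reached replicative senescence at passage 7. No genotype, strain or added agent is given for either group, and both grew in the same serum-containing medium. Total RNA was read on 2 arrays of 1 colour per passage. The labels describe 3 independent cultures whose RNA was pooled before the measurement, so the arrays of a passage may be technical repeats, and p-values then describe only the spread between arrays. All 4 arrays shared 1 slide and 1 scan, and the passages lay at different slide positions. An effect of the position cannot be told apart from one of the passage.

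Primary fibroblasts divide for a limited number of passages and then stop, while they stay alive and keep making RNA. Large cDNA collections, from which such clone names come, hold more than spliced messenger RNA of known genes. They include alternative ends of genes, retained introns, RNAs from the opposite strand and long noncoding RNAs that act without being translated. A clone named after a gene can therefore lie anywhere in or near that gene. For 1767 targets (75.4%) the label in the name matched a RefSeq gene by symbol, older symbol or accession, and these belonged to 1491 genes. A further 513 targets were labelled by a clone number alone. The files used here hold no probe sequence and only shortened positions, so whether a probe lies in an exon, an intron or a UTR, and on which strand, was not analysed here.

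The 75th percentile of the signal, used to scale the arrays, stood at 1024 and 1404 for passage 2 and at 964 and 402 for passage 7. All 12 fibroblast markers on the array (of 13 listed), among them collagen and vimentin genes, were well above background on every array. Their summed scaled signal was between 322 and 328 at passage 2 and between 401 and 551 at passage 7. Such a sum mostly follows its brightest genes. By the call rule given below, 0 fibroblast markers were called higher and 3 lower at passage 7. Markers of other cell types were dimmer in sum. Macrophage markers ran from 1.68 to 1.70 at passage 2 and from 0.563 to 0.796 at passage 7, with 2 of 5 detected on all arrays and Ptprc on none. Epithelial markers ran from 1.04 to 1.19 and from 0.302 to 0.418, with 5 of 7 detected on all arrays. Endothelial markers ran from 0.433 to 0.441 and from 0.468 to 0.503. Other marker sums were higher at passage 7. Skeletal muscle markers summed to 11.9 and 8.37 at passage 2 and 21.3 and 23.3 at passage 7, neural markers to 9.41 and 10.1 and then 13.5 and 14.2, and trophoblast markers to 1.69 and 1.73 and then 2.65 and 2.95. Calls higher and lower were 0 and 3 for macrophage, 1 and 3 for epithelial and 0 and 0 for endothelial markers. They were 1 and 1 for skeletal muscle, 1 and 0 for neural and 2 and 0 for trophoblast markers. The part of these cells in the results below was not tested. In pooled RNA, fewer cells of a type and less RNA per cell cannot be told apart.

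Most custom targets were dim. A probe counts as detected when the scanner software marked its spot as well above background. On average over the 4 arrays, 44.7% ± 6.01 (SD, n = 4 arrays) of AlBr probes were detected, 67.2% ± 4.35 of ESEB probes, 48.7% ± 5.36 of GNFA probes and 44.2% ± 4.26 of CGen probes. Over the whole array the share was 70.1% ± 3.06. The passage 7 replicate 2 array, with the lowest signal, was lowest for all of them, from 36.2% of AlBr probes to 60.8% of ESEB probes. Probes were tested if detected on both arrays of at least 1 passage. That kept 2491 custom probes, which cover 1431 targets, and left 912 targets untested. Levels are given as log2 of the signal minus the array's 75th percentile. The median level of tested probes was -3.87 for ESEB, -4.72 for GNFA, -5.06 for CGen and -5.14 for AlBr, against -1.60 for all tested probes.

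More custom probes were called higher than lower at passage 7, and ESEB had the largest share of rises. A call means an adjusted p under 0.05 from limma over all 30870 tested probes of the array and a change of at least 2-fold. Of the 2491 tested custom probes, 322 (12.9%) were called higher and 79 (3.17%) lower. Among all tested probes of the array the shares were 8.72% higher and 8.53% lower. ESEB had 189 of 1001 probes called higher (18.9%) and 41 lower (4.1%). GNFA had 56 of 468 higher (12.0%) and 8 lower (1.71%), and CGen 38 of 318 higher (11.9%) and 12 lower (3.77%). AlBr had 39 of 704 higher (5.54%) and 18 lower (2.56%). Rises made up 80.3% of the custom calls and 50.6% of all calls, and in the value table of the authors they made up 69.3% and 34.3%. Of the tested custom probes there, 5.34% were called higher, against 4.77% of all probes. With no filter on dim probes the shares were 0.932% and 0.978%. With normexp background correction, or with the replicate number as a block, 0 custom probes were called by limma, with 108 and 724 at an unadjusted p under 0.05. For comparison, 5.26% of probes to long intergenic noncoding RNA exons were called higher and 1.56% lower.

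**Figure D1:**
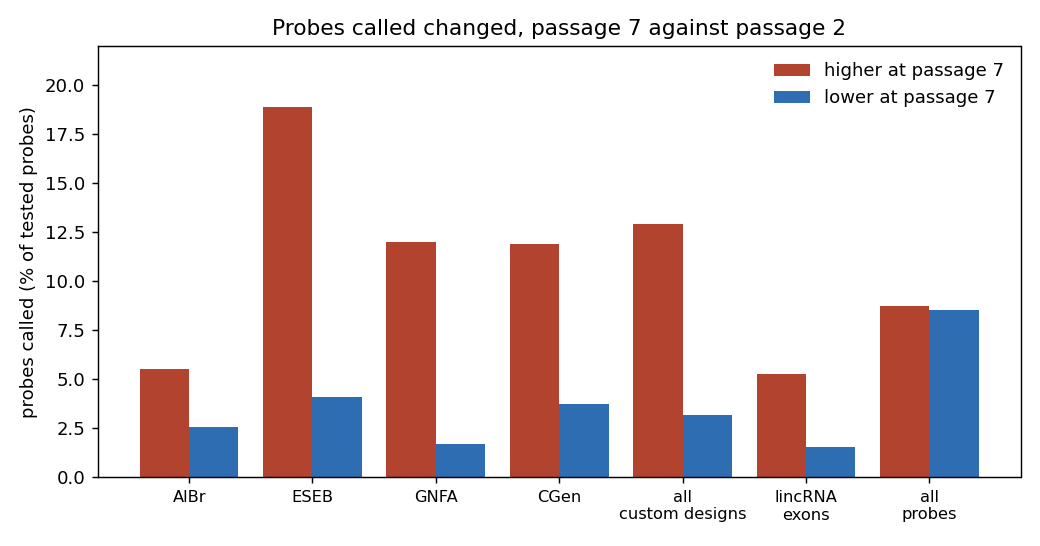
Share of tested probes called higher (red) or lower (blue) at passage 7, in percent, for the 4 custom prefixes, all custom designs, long intergenic noncoding RNA (lincRNA) exons and all probes of the array. ESEB reaches 18.9% higher, and every custom prefix lies below the 8.53% of all probes that were called lower.

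The excess of rises differed with the level of the probes. Among custom probes with a mean level from -4 to -2, 19.5% of 626 were called higher and 4.79% lower, against 8.97% and 12.9% of 4792 other probes at that level. From -6 to -4 the shares were 12.0% higher and 2.57% lower for 974 custom probes, against 8.85% and 8.76% for 5162 others. Below -6 the shares called higher were 7.29% of 521 custom probes and 7.41% of 2280 others, and those called lower 4.03% and 12.6%. These shares are descriptions and were not tested against each other.

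The size of the upward shift depended on single arrays of both passages. The median change of custom probes was 0.45 on the log2 scale, against 0.21 for all probes of the array. The shift was not particular to the custom designs. Probes to lincRNA exons, similarly dim with a median level of -4.94, had a median change of 0.46. Set against the passage 2 replicate 1 array alone, the mean of the passage 7 arrays differed by a median of 0.17 for custom probes and 0.08 for all probes. Against the passage 2 replicate 2 array, which had the brightest signal before scaling, the medians were 0.73 and 0.30. For lincRNA exon probes they were 0.09 against passage 2 replicate 1 and 0.80 against passage 2 replicate 2. Leaving out passage 7 replicate 2, the array with the lowest signal before scaling, gave medians of 0.21 for custom probes and 0.09 for all probes, and leaving out passage 7 replicate 1 gave 0.71 and 0.30. The passage 7 replicate 2 array held the highest of the 4 levels for 49.9% of custom probes and 37.3% of all probes. The passage 2 replicate 2 array held the lowest of the 4 levels for 62.9% of custom probes, for 69.5% of lincRNA exon probes and for 43.2% of all probes. Without it no custom probe was called by limma in either direction, nor was any other probe of the array, while 741 custom probes had an unadjusted p under 0.05. Without the passage 2 replicate 1 array, 502 custom probes were called higher and 79 lower. Without passage 7 replicate 1 the counts were 75 and 28, and without passage 7 replicate 2 they were 80 and 36. Of those 80 and 36, ESEB had 58 and 10, while AlBr had 9 and 12, GNFA 4 and 5, and CGen 9 and 9.

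Read without a model, the rises of the custom probes were close to the background and the falls were fewer. Both passage 7 arrays lay above both passage 2 arrays for 996 of 2485 custom probes with 4 levels (40.1%), against 38.5% of all probes. Both lay below for 329 (13.2%), against 27.4% of all probes. ESEB had 47.7% above and 16.9% below.

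**Figure D2:**
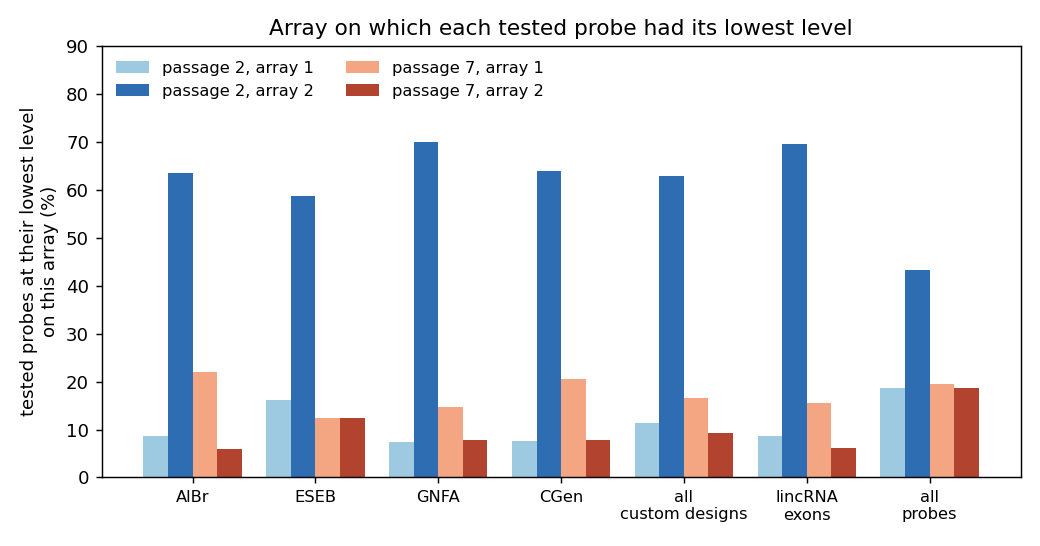
Percent of tested probes whose lowest scaled level fell on each of the 4 arrays, by set of probes. The passage 2 replicate 2 array (dark blue) holds the lowest level for 62.9% of custom probes and 43.2% of all probes.

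The probes of a target moved together. Among 1036 targets with exactly 2 tested probes, the changes at both probes correlated across targets (Pearson r = 0.88, a description over targets that share the same 4 arrays). They had the same sign in 89.0% of targets and differed by a median of 0.17 on the log2 scale. A target was called only if at least 2 of its probes were tested and every tested probe was called in 1 direction. By that rule 123 of 1045 targets (11.8%) were called higher and 27 (2.58%) lower. Among all targets or accessions of the array with at least 2 tested probes, 6.76% were called higher and 7.0% lower. ESEB gave 75 rises and 15 falls, GNFA 24 and 2, CGen 14 and 5, and AlBr 10 and 5. In 82 targets only some of the tested probes were called, and no target had probes called in opposite directions.

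**Figure D3:**
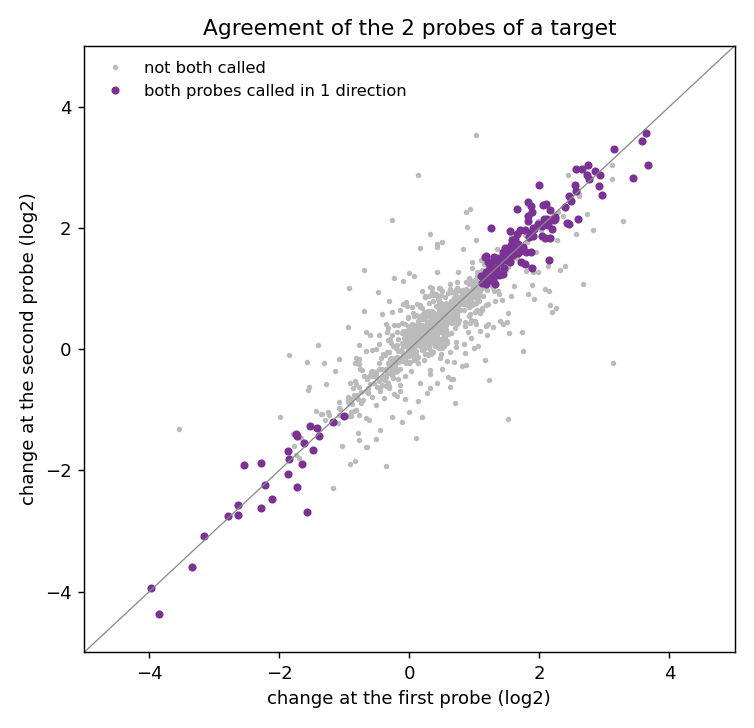
Log2 change, passage 7 minus passage 2, at the first and the second probe of 1036 targets with exactly 2 tested probes. Purple points have both probes called in the same direction, and the line marks equal changes (Pearson r = 0.88).

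The largest fall belonged to 3 separate targets that carry the same clone label, AK021262. It is named by no gene in the reference table used here. The AlBr target read -1.12 and -0.80 at passage 2 and -4.94 and -5.20 at passage 7. That is a change of -4.11 on the log2 scale, or 17.3-fold, with -3.85 (SE 0.22) and -4.37 (SE 0.27) at the probes and a limma adjusted p of 0.0096 at each. A GNFA target fell from -1.14 and -0.61 to -4.76 and -4.90 (-3.95), and another fell from -1.85 and -1.71 to -4.73 and -5.08 (-3.12). All 3 were well above background on every array, a condition for being named here, and their passages did not overlap. Calls at both probes leave little room for overlap, so its absence adds no support. The AlBr target of Pgap1, a lipid remodelling enzyme of GPI-anchored proteins, fell from -4.0 and -3.63 to -5.51 and -5.28 (-1.58). It had the opposite sign under normexp background correction (0.94). Under that correction the median change of all tested custom probes was 1.72, which also holds beside the normexp values given below. No further AlBr or GNFA target that was called lower was detected on all 4 arrays with both probes.

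Among ESEB targets the largest falls were those of Slc43a1, Sox11, Igf2os and clone AK086149. Slc43a1, an amino acid transporter of the cell surface, read -1.03 and -1.14 at passage 2 and -3.75 and -3.63 at passage 7, a change of -2.60 (SE 0.20 and 0.19, limma adjusted p = 0.0096 at each probe). The RefSeq probes of Slc43a1 did not share 1 value, since their changes ran from -2.32 to 0.38. Sox11, a transcription factor of embryonic tissues, fell from -2.09 and -2.30 to -4.77 and -4.51 (-2.45). Its brightest RefSeq probe also fell, by 1.89 on the log2 scale (limma adjusted p = 0.018). Clone AK086149 had 2 ESEB targets. The brighter one fell from -2.0 and -2.23 to -4.34 and -4.33. The dimmer one was detected at passage 2 only and was at least 2.7-fold lower at passage 7, with a change of 1.64 under normexp correction.

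The largest rise of a target detected on all 4 arrays was that of Ntf3, which encodes neurotrophin-3, a growth factor of nerve cells. Its ESEB target read -5.70 and -5.31 at passage 2 and -1.98 and -2.01 at passage 7. Both probes were called, with changes of 3.58 (SE 0.23) and 3.43 (SE 0.22) and a limma adjusted p of 0.0096 each, or 11.4-fold on average. The RefSeq probe of Ntf3 rose as well, from -2.27 and -2.22 to 0.21 and 0.17 (2.43). Without passage 2 replicate 2, the target's change was 3.71. Here the passages lay far apart and the passage 2 replicate 2 array was not the lowest.

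The ESEB rises of Pde4d and Hydin were smaller without that array. Those of Smurf1 and Ldlrad4 are described further on. Pde4d, a phosphodiesterase that degrades cyclic AMP, read -6.29 and -7.29 at passage 2 and -3.71 and -4.08 at passage 7 (2.90), and 2.40 without passage 2 replicate 2. Hydin, a protein of motile cilia, read -1.96 and -3.76 and then -0.23 and 0.30 (2.89). Its change was 3.79 without passage 2 replicate 1 and 1.99 without passage 2 replicate 2. In Pde4d and in Hydin the passages did not overlap, but in Hydin the passage 2 arrays lay further apart from each other than the nearest arrays of different passages.

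The GNFA and CGen targets named for large rises included Pcgf5 and Bmp4, described further on. Runx1t1, a corepressor of transcription, read -4.89 and -5.70 at passage 2 and -2.82 and -3.25 at passage 7 in its GNFA target (2.26). Clone AK005678 had levels of -2.32 and -3.10 and then -0.55 and -0.43 (2.22), and clone AK019435 of -5.95 and -6.64 and then -4.18 and -4.26 (2.07). The CGen target of Mycbp2, a large ubiquitin ligase listed under its older symbol Phr1, went from -5.19 and -5.57 to -3.11 and -3.14 (2.25). Kirrel3, a cell adhesion protein, went from -4.71 and -5.82 to -2.97 and -3.17 (2.19). Tanc2, a scaffold protein, went from -2.0 and -2.20 to -0.21 and -0.23 (1.88). Detection on every array was a condition for naming these 6. Calls at both probes leave little room for overlap between passages, so its absence in them adds no support.

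Large AlBr rises were those of Foxn3, a forkhead transcription factor, with 2.18, clone BC096410 with 1.83, and Erc1, a scaffold of the cell cortex, with 1.72. Foxn3 read -5.38 and -6.49 at passage 2 and -3.86 and -3.65 at passage 7, and its change was 1.62 without passage 2 replicate 2. Clone BC096410 read -5.19 and -5.90 and then -3.67 and -3.77, and Erc1 read -4.38 and -5.07 and then -3.12 and -2.89.

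**Figure D4:**
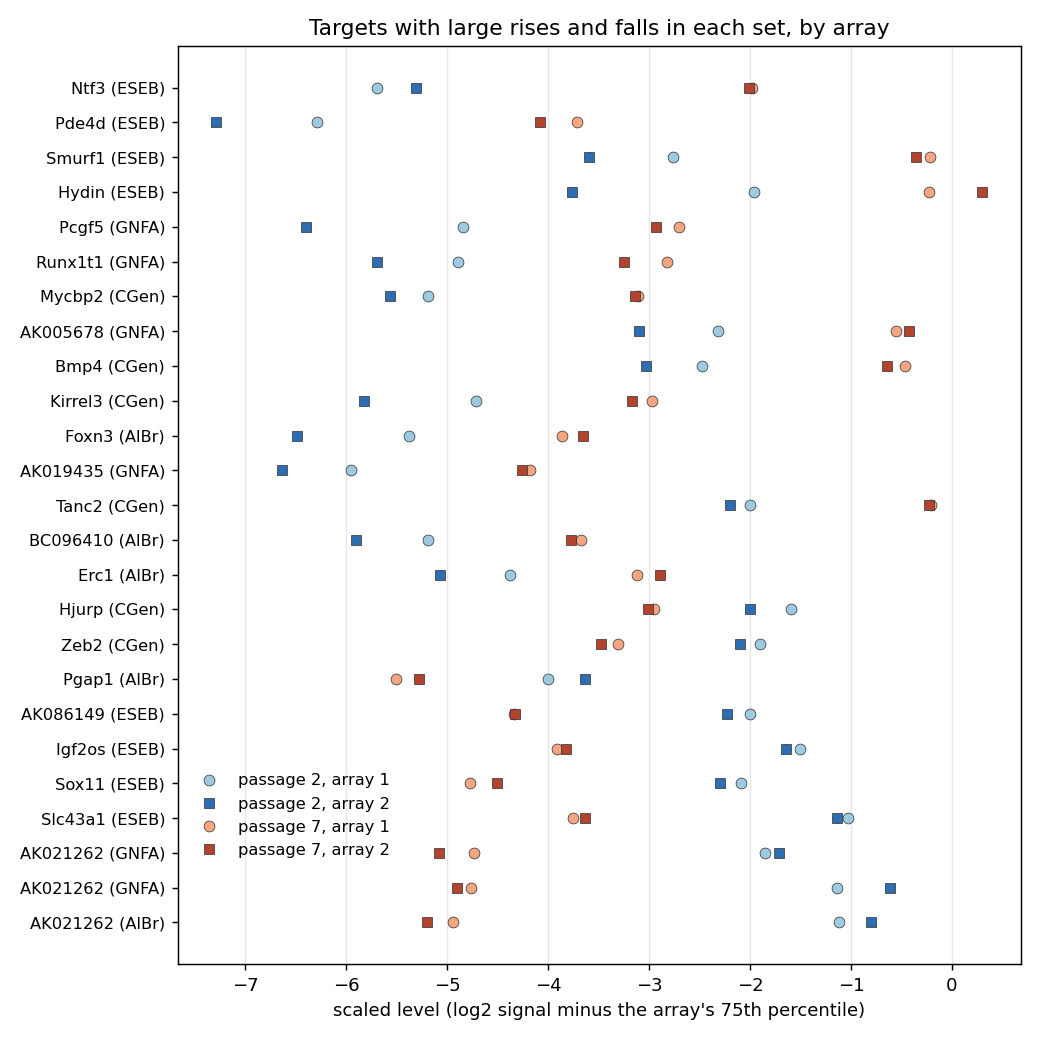
Scaled level (log2 of the signal minus the array's 75th percentile) on each of the 4 arrays for targets with large rises and falls of each prefix, ordered by mean change. Circles are replicate 1 and squares replicate 2, blue for passage 2 and red for passage 7. The rows were picked for a call at every tested probe, so the lack of overlap between passages in every row is no added support. The passage 2 arrays lie apart in many of the targets that rose.

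Few targets were detected in 1 passage only. For 3 targets, every probe was detected on both arrays at passage 7 and on none at passage 2, and for 17 targets it was the other way round. Counted by probe, 21 of 4720 custom probes were detected at passage 7 only and 154 at passage 2 only. Over the whole array 127 and 993 of 43553 probes were (0.292% and 2.28%). Detection of custom probes was lowest on passage 7 replicate 2, at 45.0%, against 54.2% to 55.3% on the other arrays. The part of that array in these counts was not tested. Among targets with every probe detected in that passage alone, the largest bound at passage 7 was that of Pcgf5, a Polycomb RING finger protein. Its AlBr target read -7.52 and -8.61 at passage 2 and -4.20 and -4.72 at passage 7, which makes it at least 11.5-fold higher. A bound compares the bright passage with, on each dim array, the higher of the probe's own level and the lowest level marked as well above background.

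The brightest target of each set gave no call. The ESEB target of Dnajc8, a chaperone-like protein linked to splicing, was at 6.91 and 6.21 at passage 2 and 6.43 and 6.97 at passage 7. The AlBr target of Cd96, an immune receptor, was at 2.80 and 2.43 and then 2.72 and 2.73. Its label is a gene of lymphocytes, while Ptprc, a marker of white blood cells, was detected on no array. The RefSeq probe of Cd96 itself was detected on every array. It read -5.18 and -5.68 at passage 2 and -5.42 and -4.46 at passage 7 (0.49, not called). The CGen target labelled EG329070, now listed as Sh3pxd2a, was at 3.98 and 4.38 and then 4.86 and 5.09 (0.80). The GNFA target of clone AK019083 was at 3.83 and 1.40 and then 5.33 and 5.07. Its change of 2.59 missed the threshold (limma adjusted p of 0.099 and 0.097). The passage 2 arrays lay far apart for it, and its value was 1.37 without passage 2 replicate 2.

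Targets named after a gene were compared with the RefSeq probes of that gene on the same arrays. This asked whether a custom design read the same change as the gene's standard probe, taken as the brightest tested one. It was possible for 867 targets with a tested probe. Across them the changes correlated weakly (Pearson r = 0.26, from 0.22 in AlBr and ESEB to 0.34 in GNFA and 0.35 in CGen), as a description across targets that share the 4 arrays. The median change was 0.47 for the targets and -0.04 for the genes. Every tested probe was called higher in 95 targets. The gene was called higher for 13 of these targets, not called for 78 and called lower for 4. A gene with several targets is counted once for each of them. Every tested probe was called lower in 15 targets. For these the gene was called lower in 7, not called in 8 and called higher in 0. Conversely, the gene was called lower for 95 targets that were not called themselves, and higher for 43.

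The difference between target and gene was tested itself, with limma on the log2 ratio of the custom probe to the gene's brightest RefSeq probe on each array. None of 1539 custom probes passed at an adjusted p under 0.05, and 600 of them (39.0%) had an unadjusted p under 0.05, of which 495 were higher in the target. The same ratio for 10970 further RefSeq probes of a gene also gave 0 passes, with 938 (8.55%) at an unadjusted p under 0.05. The median difference was 0.54 for custom probes and -0.02 for the further RefSeq probes. The sets are not alike in brightness. The median level of tested probes was -4.59 for custom designs and -0.81 for RefSeq gene probes. The part of brightness in these differences, and in the medians of targets and genes above, was not tested. The lowest adjusted p of the whole set was 0.0909. No single target was therefore shown to differ from its gene by this test, and the values below stand side by side. In those values, levels of different probes are not compared.

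**Figure D5:**
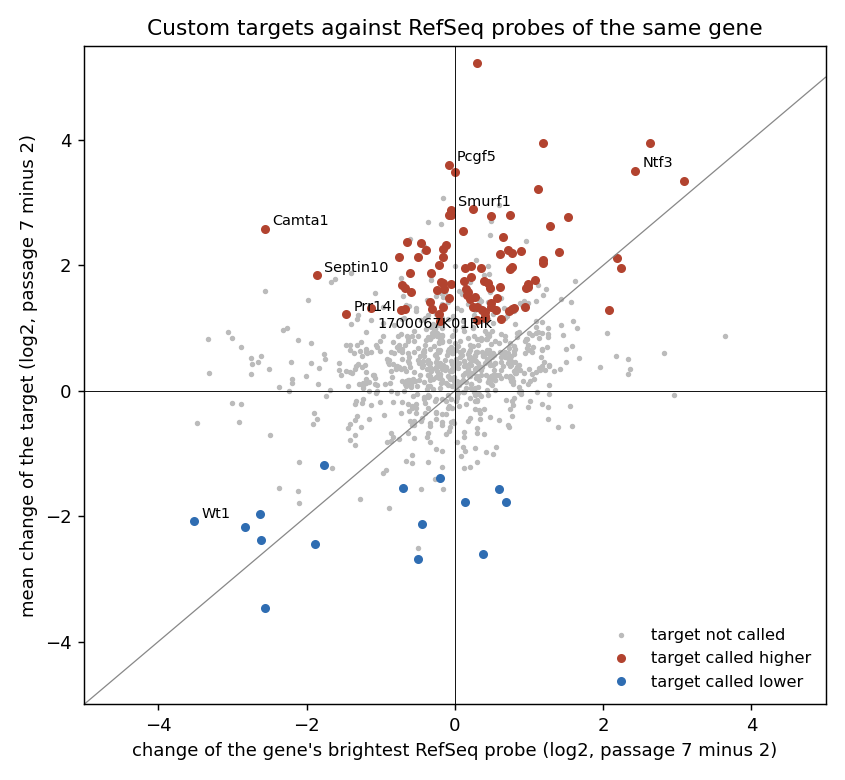
Mean log2 change of 867 custom targets (vertical axis) against the log2 change of the brightest RefSeq probe of the same gene (horizontal axis), passage 7 minus passage 2. Coloured targets had every tested probe called, and the line marks equal changes. Ntf3 and Wt1 lie in the same quadrant as their gene, and Camta1, Septin10, Prr14l and 1700067K01Rik in the opposite one.

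In 4 targets both readings were called in opposite directions. Camta1, a calmodulin-binding transcription activator, has an ESEB target under its older clone label that rose from -4.39 and -4.62 to -1.80 and -2.05. The change was 2.57 and 2.60 at the probes (SE 0.22 each, limma adjusted p = 0.0098 each). Its RefSeq probe was detected at passage 2 only and was at least 2.41-fold lower at passage 7. Septin10, a cytoskeletal GTPase, rose from -3.23 and -3.97 to -1.81 and -1.71 in its GNFA target, while its RefSeq probe fell from -1.45 and -0.71 to -3.14 and -2.75 (-1.86, limma adjusted p = 0.03). All 3 RefSeq probes of Septin10 gave changes between -1.86 and -1.81. Prr14l had 1.22 in its AlBr target and -1.47 at the gene, and 1700067K01Rik had 1.33 in its CGen target and -1.14 at the gene.

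Genes with a rising target and an uncalled gene probe were more common. Pcgf5 rose in both its AlBr and its GNFA target, the latter from -4.84 and -6.40 to -2.70 and -2.93 (2.80, and 2.02 without passage 2 replicate 2). The 3 RefSeq probes of Pcgf5 had changes between -0.23 and -0.07. Foxn3 rose in its AlBr target (2.18) and in its GNFA target, which went from -4.85 and -4.98 to -3.12 and -3.38 (1.66), with 0.60 at the gene's probe (limma adjusted p = 0.20). Runx1t1 had 2.26 in its GNFA target and between -0.27 and -0.13 at 3 RefSeq probes. Tanc2 had 1.88 in its target and -0.61 at the brightest RefSeq probe.

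Several genes had targets that disagreed with one another. For Zeb2, a zinc finger repressor, the CGen target fell from -1.90 and -2.10 to -3.31 and -3.48 (-1.40, limma adjusted p of 0.036 and 0.029, and 0.16 under normexp correction). The AlBr target of Zeb2, under its older symbol Zfhx1b, had 0.22, the GNFA target 0.84 at its only tested probe, and the gene's probe -0.20, none of them called. For Epb41l5, an adaptor of the cell cortex, the ESEB target fell by 1.77 and the GNFA target had 0.23. For Farp1 the only tested probe of the AlBr target was detected at passage 7 only. Its estimated change was 2.32 (SE 0.49), or 4.99-fold, while the ESEB target had -0.68 and was not called. In all, 58 labels occurred under more than 1 prefix with a tested probe. Their changes correlated with r = 0.58 between prefixes, and had the same sign for 35 labels. AK021262, Pcgf5 and Foxn3 were called in 1 direction in more than 1 target, and no label was called in both directions.

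Genes of the TGF-beta and BMP pathway were taken as a group. In this pathway secreted ligands bind paired kinase receptors, which activate Smad proteins, and Smurf ubiquitin ligases remove receptors and Smads. This group and the ones below were put together by gene function from the labels on the array with some values already seen. Of 22 such targets, 11 had a tested probe. Of the 21 tested probes 11 were called higher and 0 lower (median change 1.88, against 0.21 over all tested probes, of which 8.72% were called higher and 8.53% lower). Of the 11 calls, 4 came from a pair of Smurf1 clones with nearly the same values. Among the brightest RefSeq probes of the same genes, 1 of 17 was called higher and 1 lower, with a median of -0.17. These counts include Tnrc6c, a gene of microRNA silencing that is no member of the pathway. Its ESEB target had 0.80 and was not called.

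Bmp4, a ligand of the pathway, rose in its CGen target from -2.48 and -3.03 to -0.46 and -0.64 (2.21, limma adjusted p of 0.012 and 0.02), and its RefSeq probe rose by 1.41. Smurf1 had 2 ESEB clones with nearly the same values. One read -2.76 and -3.60 at passage 2 and -0.22 and -0.36 at passage 7 (2.89, and 2.47 without passage 2 replicate 2), the other -2.63 and -3.61 and then -0.26 and -0.37 (2.81). The RefSeq probe of Smurf1 read 3.54 and 3.34 at passage 2 and 3.38 and 3.40 at passage 7. The AlBr target of Smurf2 rose from -6.06 and -6.12 to -4.41 and -4.55 (1.61), with -0.24 at its RefSeq probe. Ldlrad4, an inhibitor of Smad activation, rose from -6.12 and -6.88 to -3.68 and -3.73 (2.80), with 0.74 at the gene. Tll1, a protease that frees BMPs from an antagonist, had 2.27 with 1 of 2 probes called. Grem1, a BMP antagonist, had 0.82, the receptor Acvr2a 0.15 and the coreceptor Neo1 -0.48, none of them called.

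Homeobox and other developmental transcription factors set the identity of body regions and tissues, and fibroblasts keep part of the Hox pattern of their origin. Of 104 such targets 66 had a tested probe. Of 121 tested probes 11 were called higher and 7 lower, with a median change of 0.40, where 8.72% and 8.53% of all tested probes were called. The count of rises is near that background. Among the brightest RefSeq probes of the same genes 5 of 65 were called higher and 11 lower. Among the targets with every tested probe called higher were 2 of Foxn3 and that of Hoxb6, and those called lower were Sox11, Wt1 and the CGen target of Zeb2. Hoxb6, a Hox factor of the trunk, went from -0.54 and -0.68 to 0.71 and 0.75 (1.34). Wt1, a zinc finger factor of mesothelium and kidney, was detected at passage 2 only in its ESEB target, which was at least 2.08-fold lower at passage 7. Its RefSeq probe fell from -0.80 and -0.61 to -4.02 and -4.42. Other Hox targets were not called, among them those of Hoxa9 (-0.24), Hoxa10 (0.23 and 0.73) and Hoxa13 (-0.35), except that 1 of 2 Hoxa3 probes was called lower.

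Many genes of DNA replication are made when a cell commits to copying its genome. The group of cell division and DNA replication genes also held genes of mitosis, DNA repair and cell cycle inhibition. Of 49 targets of this group 36 had a tested probe. Of 63 tested probes 2 were called higher and 7 lower, against 8.72% and 8.53% of all tested probes, and the median change of 0.21 equalled that of all probes. The brightest RefSeq probes of the same 40 genes had a median of -0.74 and were called lower in 16 and higher in 1. The targets of Cdkn2c and Hjurp were called lower, and so was the only tested probe of a Dtl target. The CGen target of Hjurp, the chaperone that loads the centromeric histone, fell from -1.59 and -2.0 to -2.95 and -3.01 (-1.19, and 0.07 under normexp correction), and the gene's probe fell by 1.76. The only tested probe of the GNFA target of Dtl, a substrate receptor for replication-linked ubiquitination, was at least 4.62-fold lower, with -2.62 at the gene's probe.

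Cdkn2c encodes p18, an inhibitor of the kinases that drive entry into the cycle. One of its CGen targets was detected at passage 2 only, at -5.74 and -5.58, and was at least 3.34-fold lower at passage 7, with a change of 1.54 under normexp correction. The 3 RefSeq probes of Cdkn2c had changes between -0.63 and -0.50 and were not called. Nsmce2, a SUMO ligase of the Smc5/6 complex, went the other way and rose from -1.93 and -1.88 to 0.10 and 0.00 (1.95), with 0.14 at the gene. Several targets of genes whose RefSeq probe fell were not called themselves. Smc2, a condensin subunit, had -0.52 in its AlBr target and -3.47 at the gene, Mad2l1, a spindle checkpoint protein, -0.21 and -2.89, and Dek, a chromatin protein, 1.45 and -1.98.

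The promoters of these 3 genes, from the RefSeq sequence table, are shown because a probe of each one's target was called lower; the gene's own probe was also called lower for Dtl and Hjurp. For Cdkn2c it was not called, and the ratio of target to gene did not pass the test (limma adjusted p of 0.28 and 0.16). Each is the 250 bases before the first listed start, on the gene's own strand, in build GRCm38.p6, with matched words in capitals. The words searched on both strands were the E2F words TTTCCCGC, TTTCGCGC and TTTGGCGC. The cell cycle homology region (CHR) word TTTGAA was searched too. The word of the CCAAT box and the TATA word TATAAA were the last.
Dtl (chr1:191575545-191575794, minus strand): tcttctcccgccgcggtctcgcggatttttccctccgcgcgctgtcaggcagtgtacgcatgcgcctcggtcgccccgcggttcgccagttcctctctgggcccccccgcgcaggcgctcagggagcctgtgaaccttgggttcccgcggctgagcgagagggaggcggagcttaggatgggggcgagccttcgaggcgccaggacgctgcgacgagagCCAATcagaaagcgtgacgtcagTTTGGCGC
Hjurp (chr1:88277580-88277829, minus strand): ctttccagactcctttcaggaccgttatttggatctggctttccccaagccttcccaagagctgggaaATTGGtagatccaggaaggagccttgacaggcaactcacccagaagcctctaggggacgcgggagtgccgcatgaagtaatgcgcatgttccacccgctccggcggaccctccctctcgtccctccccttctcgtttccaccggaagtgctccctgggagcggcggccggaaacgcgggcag
Cdkn2c (chr4:109666757-109667006, minus strand): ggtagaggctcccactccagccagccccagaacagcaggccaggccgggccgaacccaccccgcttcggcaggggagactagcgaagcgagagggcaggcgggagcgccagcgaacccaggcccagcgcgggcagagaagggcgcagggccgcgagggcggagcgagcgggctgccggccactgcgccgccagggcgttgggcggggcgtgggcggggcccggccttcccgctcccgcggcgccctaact
The Dtl promoter held TTTGGCGC, starting 8 bases before the start, and CCAAT, starting 31 bases before it. Among 27025 promoters of the table, 1.59% held any of the 3 E2F words, 16.3% held TTTGAA, 34.5% held CCAAT and 13.0% held TATAAA. Hjurp held CCAAT on the opposite strand, and Cdkn2c held none of the words in this window. A match is a description of letters, not a bound site.

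Long noncoding and antisense RNAs with a RefSeq entry accounted for 42 targets, 25 of them with a tested probe. Of 43 tested probes 2 were called higher and 8 lower (median change 0.27), against 8.72% and 8.53% of all tested probes. Malat1, a nuclear RNA of splicing speckles, rose in its CGen target from 0.75 and 0.65 to 1.91 and 2.09 (1.30). Igf2os, transcribed opposite the imprinted growth factor gene Igf2, fell from -1.5 and -1.64 to -3.91 and -3.82 (-2.29, limma adjusted p of 0.012 and 0.0096). Dlx1as, from the opposite strand of a homeobox gene, fell from -3.88 and -3.80 to -6.0 and -7.22 (-2.77). Snhg1, the host RNA of several small nucleolar RNAs, fell in both of its ESEB targets, which share a clone label, from -1.60 and -1.36 to -2.72 and -3.08 (-1.41) and from -3.29 and -2.45 to -4.52 and -4.88 (-1.83).

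Gas5, Xist, Airn, Kcnq1ot1, Gnasas1, Peg13 and Tug1 were not called. Gas5, also a host of small nucleolar RNAs, had 0.70 at one probe and -0.89 at the other (limma adjusted p of 0.19 and 0.043). Xist, the RNA of the inactive X chromosome, had changes of 0.44, 0.26 and 0.04 in its 3 tested targets. Airn and Kcnq1ot1, which silence imprinted neighbours, had 0.93 and -0.10, and 0.62 and 0.38. Gnasas1 had 0.89, Peg13 0.50 and Tug1 0.28 at its only tested probe. With 2 arrays per passage these values do not show that the RNAs stayed level.

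Extracellular matrix genes and their enzymes, the main products of fibroblasts, had 22 of 30 targets with a tested probe. Of 36 tested probes 4 were called higher, near the 8.72% of all tested probes, and 0 lower, against 8.53%. The median change was 0.65. Among the brightest RefSeq probes of the same genes 2 of 24 were called higher and 5 lower. The CGen target of Adamts5, a protease of proteoglycans, rose from -6.72 and -6.40 to -4.59 and -4.61 (1.96), and its RefSeq probe rose by 2.24. The ESEB target of Gpc6, a membrane proteoglycan, rose from -5.90 and -5.90 to -4.22 and -4.11 (1.73), with -0.19 at the gene. Targets whose gene probe was called lower were not called themselves: Vcan, a large proteoglycan, had -1.55 and -2.38 at the gene, Col24a1 0.06 and -2.38, and Lama4 0.34 and 0.45 with -1.56 at the gene. Thbs1, a matricellular protein, had 1.99 without a call, and its passage 2 arrays read 1.5 and -1.05.

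Some names carry letters after the prefix, from B, E, M and N, of unstated meaning. Probes without letters were called higher in 198 of 1432 (13.8%) and lower in 42 (2.93%), and those with any letter in 124 of 1059 (11.7%) and 37 (3.49%). Names with B had 22 of 337 called higher (6.53%) and 21 lower (6.23%), and names with N had 21 of 174 higher (12.1%) and 2 lower (1.15%). These shares were not tested against each other.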

How the data were processed

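The 4 arrays of 1 colour held Cy3-labelled fibroblast RNA, 2 for each passage. The deposited spot files hold background-subtracted signal, spot and background intensity and flags, written by Feature Extraction 10.5.1.1 for design build mm9, per the file headers. The authors' deposited value table is on the log2 scale, and its centring and background treatment are not given in the sources used here. From the processed intensity, log2 minus each array's 75th percentile over non-control spots was taken. Outlier spots were left out, spots of 1 probe were averaged, and probes detected on both arrays of at least 1 passage entered a two-sided test by lmFit and eBayes, without covariates (R 4.3.3, limma 3.58.1), with Benjamini-Hochberg adjustment over all 30870 tested probes. The ratio of target to gene was tested the same way, adjusted over all ratios, as an analysis added after the data were seen. The procedure was tested on simulated levels of 30870 probes. Of 50 probes changed by 1 on the log2 scale, 0 were called, and of 50 changed by 2, 1 was. Of 50 changed by 3, 26 were called, and of 50 changed by 5, 43 were, with 6 false calls in all. Far fewer probes were changed there than were called in the data, which makes the adjustment stricter. A missing call is therefore weak evidence of no change. Labels were matched to a RefSeq gene table of assembly GRCm38.p6, which differs from the design's build, so no coordinates of targets are given. Precision is limited by having 2 arrays per passage.

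Members, gene groups and marker lists were chosen with earlier results of these data known. Targets were named by rule: per prefix the 4 largest rises and 4 largest falls among targets called at all of at least 2 tested probes and detected on all arrays, the 2 largest bounds in each direction among targets detected in 1 passage only, targets with opposite calls, and the brightest target per prefix. Members of the gene groups, noncoding RNAs, targets opposite to their gene and repeated labels were named after their values were seen. Alternatives were other backgrounds, scalings, filters, variance models and thresholds, blocking on replicate number, and dropping single arrays; a crossed block and the splitting of names with 4 probes were added later. Some targets that the rule names are not reported here.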

Additional observations from a re-analysis of the deposited data

How the results depend on the processing

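The counts of custom probes called higher and lower (322 and 79) and of targets called higher and lower (123 and 27) stayed within 1.5 times under quantile normalisation, scaling over probes detected on all arrays, 1 value per target, outlier spots kept, both other eBayes variants and no minimum fold. Pooled over prefixes, rises outnumbered falls in each setting that called any custom probe, with a share of rises among custom calls from 69.0% to 86.6%, against 34.3% to 59.2% among all calls of the array. By prefix this did not always hold: with no filter on dim probes AlBr had 3 rises and 4 falls and GNFA 1 and 5, without passage 7 replicate 1 GNFA and CGen each had 7 and 7, and without passage 7 replicate 2 only ESEB had more rises than falls. With array median scaling 146 probes and 49 targets were called lower. With a filter for detection on all 4 arrays 47 probes were called lower. The authors' value table gave 133 probes and 50 targets called higher. With no filter on dim probes the calls fell to 44 and 18 probes and 8 and 7 targets. Normexp on median spot and background intensity gave 0 calls of probes or targets in either direction, with 108 custom probes at an unadjusted p under 0.05, and 0 calls over the whole array. Its changes had the opposite sign for 5 of 30 called named targets: Pgap1 0.94, Zeb2 0.16, Hjurp 0.07, Cdkn2c 1.54 and the dimmer AK086149 target 1.64. All 5 lay below the median change of custom probes under normexp, which was 1.72, against 0.71 for all probes. The cause of the opposite signs was not tested.

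Leaving out each array in turn gave from 0 to 502 probes called higher, 0 to 79 called lower, 0 to 176 targets called higher and 0 to 25 called lower. All 30 called named targets kept their sign in these fits. The levels of the passages did not overlap in any of these targets, so leaving out an array could not reverse a sign. The kept signs therefore add no support. The replicate number as a block left 0 calls in either direction for probes and targets, with 724 custom probes at an unadjusted p under 0.05. Same-numbered arrays deviated with a correlation of -0.1641, so the numbers were not taken as pairs. A crossed replicate block, added later, called 430 probes higher and 111 lower, with 155 and 35 targets.

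Detection by the 95th percentile of negative control spots was wider, with 68.6% of AlBr, 83.0% of ESEB, 71.4% of GNFA and 65.2% of CGen probes. The 3 other scalings moved the median change of all probes from 0.21 to between 0.04 and 0.10 and that of custom probes from 0.45 to between 0.25 and 0.34. In the value table the medians were -0.06 and 0.04, and under normexp 0.71 and 1.72. Signal over background was 4.65 and 5.05 at passage 2 and 4.28 and 2.94 at passage 7, which limits the readings of dim targets.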
